A study of Mus musculus with 4 samples.

Results

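Adipocyte genes were followed in the colon of female mice that had received trinitrobenzene sulfonic acid (TNBS), with or without ginger extract or zingerone, or vehicle alone. The 8 genes Fabp4, Cfd, Lep, Retn, Adipoq, Plin1, Cidec and Lpl were chosen by name, as genes that mark fat cells. The choice was made with earlier results of these data known. Their probes were found through the platform annotation and current synonyms. Of these 8 genes, 7 had a probe (8 probes, with 2 for Lpl), out of 16637 genes named on the array. Retn, which encodes resistin, carried no probe under its symbol or a synonym and was not analysed here. Colon RNA was measured on 1-colour Cy3 arrays, 1 array for each of 4 groups of 6 mice, on day 7. The groups were TNBS with ginger extract, TNBS with zingerone (a phenolic compound of ginger root), TNBS alone, and mock. TNBS was dosed at 250 mg/kg in the first 3 groups, and ginger extract or zingerone was part of the same mixture, not a separate treatment. The vehicle, 0.1 ml of ethanol at 50%, was common to all 4 groups, so the mock colon was ethanol-exposed too. The strain is written BALB/c for mock and BALC/c for the other groups. The amounts of ginger and zingerone varied and are not given per array, and neither is whether its RNA came from 1 mouse or a pool.

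A single array stands for each group, so every comparison below lacks a replicate check and carries neither an SD nor a test, and precision is limited by having 4 arrays. Differences are ratios of 2 arrays on the deposited intensity scale, with 2-fold as the size from which a gene counts as higher or lower. The 29922 probes of an array had medians of 238 to 238.2. Genes whose signal came up to the named-probe median (269 to 272.2) on 1 array or more count as measured, and 10056 genes did so. Of the 7 adipocyte genes with a probe, 6 did so, and Plin1 did not. In RNA of whole tissue, a change in the number of fat cells and a change in the RNA of each cell cannot be told apart. All 13 colon epithelium markers looked up were measured.

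White fat cells store triglyceride in a single large droplet and release hormones. Lipoprotein lipase frees fatty acids from circulating lipoproteins, FABP4 carries them inside the cell, and perilipin 1 and CIDEC coat and enlarge the droplet. Leptin, adiponectin, adipsin and, in mice, resistin are secreted. Around the intestine, fat lies in the mesentery that attaches to the bowel wall. FABP4 is also made by macrophages and by the endothelium of small vessels, so its transcript alone does not mark a fat cell.

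The bases just before the start sites of Cfd, Lep and Cidec are shown because these genes were higher on the TNBS array. Plin1, which read 234.5 on TNBS and 229.5 on mock, is shown beside them. Its probe was too dim to count as measured, so a change in Plin1 could have been missed. The sequences are from RefSeq (GRCm38.p6), 250 bases each, written 5′ to 3′ in the direction of the gene. Of the 8 genes, 6 had an entry, and Fabp4 and Lpl had none. Capitals mark matches on either strand to TTGCNNAA, a form of the C/EBP motif, to TGANTCA, the AP-1 motif, and to TATAA. Cfd lies on the plus strand at chr10:79890603-79890852 and Lep on the plus strand at chr6:29059971-29060220. The Cidec starts lie on the minus strand at chr6:113435761-113436010 and chr6:113434765-113435014, and Plin1 on the minus strand at chr7:79732777-79733026.
Cfd: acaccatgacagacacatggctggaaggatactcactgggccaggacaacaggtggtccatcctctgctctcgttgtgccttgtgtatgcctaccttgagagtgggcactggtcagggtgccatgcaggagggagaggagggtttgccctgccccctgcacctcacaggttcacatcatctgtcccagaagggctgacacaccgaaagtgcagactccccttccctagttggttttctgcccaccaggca
Lep: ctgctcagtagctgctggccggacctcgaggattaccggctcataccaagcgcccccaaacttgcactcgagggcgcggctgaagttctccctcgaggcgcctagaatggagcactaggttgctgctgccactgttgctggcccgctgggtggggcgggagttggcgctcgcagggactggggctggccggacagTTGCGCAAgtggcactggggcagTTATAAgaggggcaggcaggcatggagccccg
Cidec, upstream start: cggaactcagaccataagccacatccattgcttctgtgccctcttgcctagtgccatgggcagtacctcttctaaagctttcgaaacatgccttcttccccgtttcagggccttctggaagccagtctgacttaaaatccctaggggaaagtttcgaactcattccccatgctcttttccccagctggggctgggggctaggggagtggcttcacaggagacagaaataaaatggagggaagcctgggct
Cidec, downstream start: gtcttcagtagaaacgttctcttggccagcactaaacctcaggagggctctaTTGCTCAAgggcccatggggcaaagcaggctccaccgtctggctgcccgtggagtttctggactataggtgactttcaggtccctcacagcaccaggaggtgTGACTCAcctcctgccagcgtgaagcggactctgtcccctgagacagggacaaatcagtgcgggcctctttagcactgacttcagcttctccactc
Plin1: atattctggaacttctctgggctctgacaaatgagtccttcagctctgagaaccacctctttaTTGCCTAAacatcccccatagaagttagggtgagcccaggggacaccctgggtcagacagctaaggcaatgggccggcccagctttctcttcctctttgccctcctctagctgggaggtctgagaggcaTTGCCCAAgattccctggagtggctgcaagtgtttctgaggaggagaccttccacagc

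Lep held the C/EBP letters TTGCGCAA from -55 to -48, counted from the start site, and TATAA from -31 to -27, a match that also reads TATAA on the other strand 1 base further upstream. The downstream Cidec start held TTGCTCAA from -198 to -191 and TGACTCA from -96 to -90, and the upstream start held no match. Plin1 held TTGCCTAA from -187 to -180 and TTGCCCAA from -58 to -51. None of these letters was found in the Cfd, Adipoq or Retn windows. Of 32536 distinct promoter windows of this length, 9.57% held TTGCNNAA, 6.73% TGANTCA and 22.7% TATAA. The PPAR-RXR direct repeat AGGTCANAGGTCA was in 0.0338% of windows and in none of the members' windows. A match is a description of letters, and these windows leave out more distant elements.

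Fabp4, which encodes the fatty acid carrier of fat cells, differed most. Its probe read 9969 on the ginger array, 19855 on zingerone, 45906 on TNBS and 4159.5 on mock. The TNBS array was high and the mock array low, with both treated arrays between them. Fabp4 was 11.0-fold higher on TNBS than on mock and ranked 40th from the top among the measured genes by that difference. On the rank scale of an array (the percent of its probes at or below a value) it was at 99.9% on TNBS and 97.5% on mock, so it was bright on both arrays. Since the arrays share 1 distribution of values, a reading this near the top is mainly a rank.

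The secreted proteins came next. Cfd encodes adipsin (complement factor D), the serine protease that cleaves factor B in the alternative complement pathway. It read 4804 on ginger, 6871 on zingerone, 16128 on TNBS and 4376 on mock, and was 3.69-fold higher on TNBS than on mock. Its order over the 4 arrays was that of Fabp4, with the ginger array close to mock. Lep, the gene of the satiety hormone leptin, read 166.2 on ginger, 289.2 on zingerone, 383.2 on TNBS and 143.5 on mock, 2.67-fold higher on TNBS than on mock. It lay at 25.7% of the rank scale on ginger, 59.3% on zingerone, 69.5% on TNBS and 13.9% on mock, below the median of the named probes on ginger and mock and above it on the other arrays. The size of its ratios is therefore uncertain: with the 5th percentile of each array taken off as background, the ginger and mock readings were at the floor of 50 set for that subtraction, and the ratio of TNBS to mock became 5.22. Adipoq, which encodes adiponectin, read 460.5 on ginger, 584.6 on zingerone, 689.2 on TNBS and 517.8 on mock, a ratio of TNBS to mock of 1.33. No pair of its 4 values was 2-fold apart.

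Among genes of the fat droplet Cidec differed, while Plin1 was too dim to tell. Cidec, whose protein fuses droplets, read 381.2 on ginger, 616.5 on zingerone, 823.2 on TNBS and 347.2 on mock, 2.37-fold higher on TNBS than on mock. It followed the same order as Fabp4, Cfd and Lep. Plin1, whose protein perilipin 1 coats the droplet and guards it from lipases, read 236.8 on ginger, 253.8 on zingerone, 234.5 on TNBS and 229.5 on mock. All 4 readings lay near the middle of the rank scale, and the probe stayed under the median of the named probes on every array. Lpl, the secreted lipase, averaged 430.8 on ginger, 575.6 on zingerone, 598.4 on TNBS and 443.3 on mock over its 2 probes, a ratio of TNBS to mock of 1.35. The dimmer Lpl probe gave 1.23 and the brighter 1.48, so both pointed the same way.

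**Figure D1:**
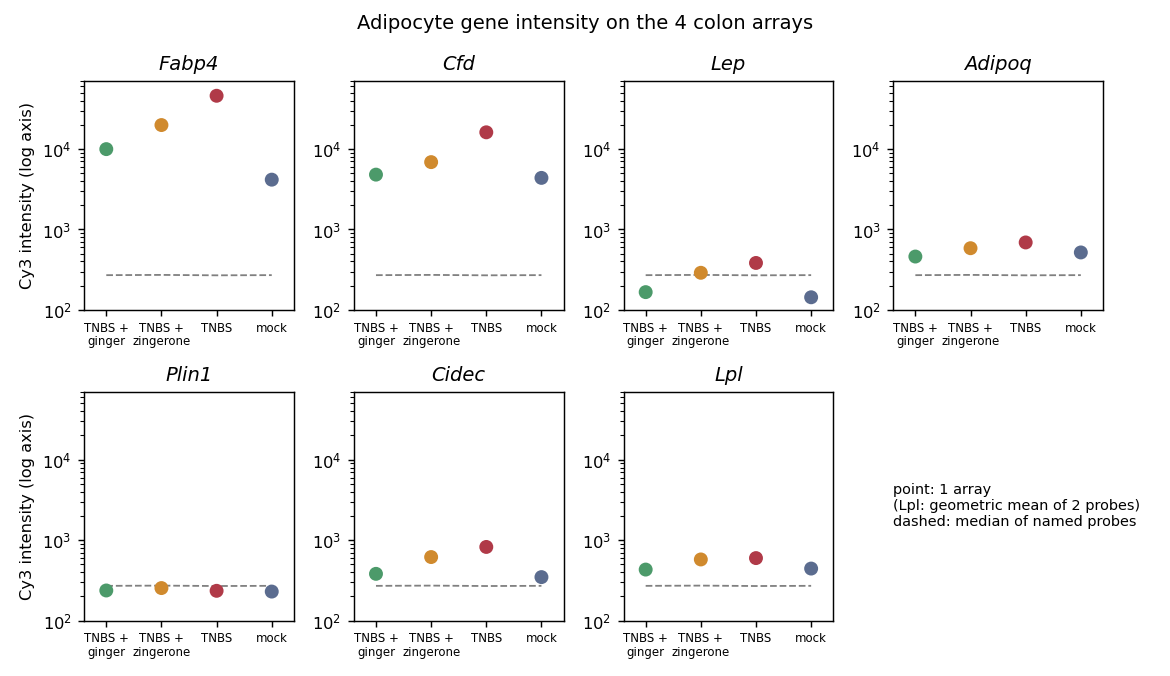
Cy3 intensity (log axis) of the 7 adipocyte genes with a probe on the TNBS with ginger, TNBS with zingerone, TNBS and mock arrays, 1 point per array, with the median of the named probes dashed. Fabp4, Cfd, Lep and Cidec were highest on TNBS, with zingerone above ginger and ginger above mock, while Plin1 stayed between 229.5 and 253.8.

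Set against mock, 4 of the 7 genes (Fabp4, Cfd, Lep and Cidec) were at least 2-fold higher on TNBS and none was lower. Over all measured genes 5.08% were higher and 4.52% lower, and over all named genes, dim ones included, 3.1% and 2.74%. Since the adipocyte genes were chosen with earlier results of these data known, their count is a description and no independent result. Lep counted as measured only because of its TNBS and zingerone values. All 7 genes lay above mock by some amount, as did 46.1% of the measured genes. The median difference of the 6 genes other than Fabp4 was 0.84 (log2, TNBS minus mock), against -0.04 over all measured genes. Fabp4 exceeded that median by 2.63 on the log2 scale, a further 6.17-fold. The other genes ranged from 0.03 for Plin1 to 1.88 for Cfd, so none reached the Fabp4 difference of 3.46.

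**Figure D2:**
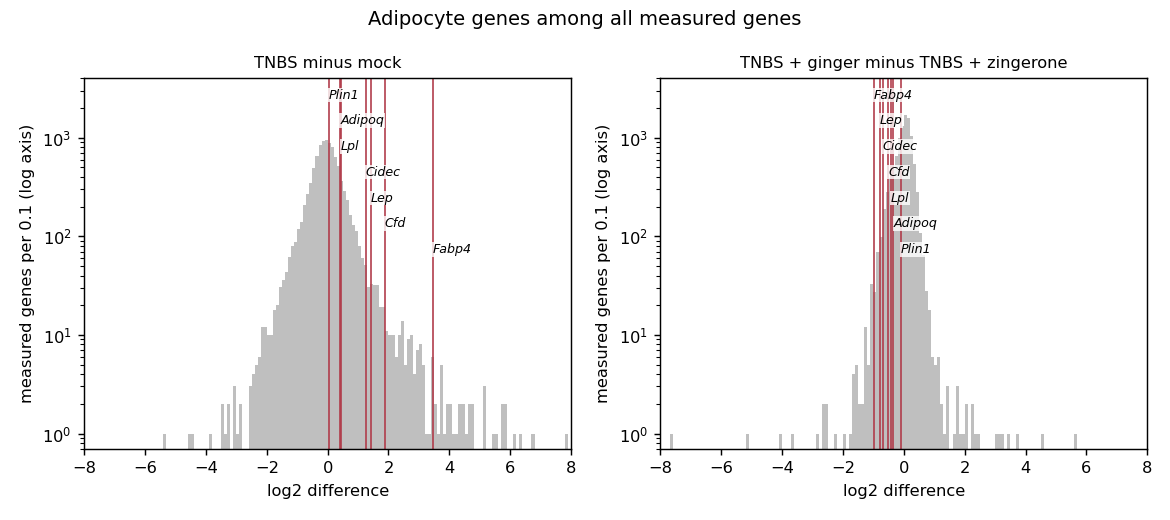
Number of measured genes per 0.1 of log2 difference (log axis) for TNBS minus mock and for TNBS with ginger minus TNBS with zingerone, with red lines at the 7 adipocyte genes (Plin1 itself is below the measured limit). Fabp4 lies at 3.46 in the first panel and Plin1 at 0.03, and in the second panel all 7 lines lie below 0, from -0.99 for Fabp4 to -0.10 for Plin1.

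Adding ginger extract to TNBS was set against TNBS alone. Fabp4 was 4.60-fold lower on the ginger array, Cfd 3.36-fold, Lep 2.31-fold and Cidec 2.16-fold, the same 4 genes that were higher on TNBS than on mock. The Lep ratio rests on a dim ginger reading and became 5.22-fold lower after background subtraction. Both comparisons share the TNBS array, so this overlap is no independent result. Over all measured genes 2.48% were lower and 1.35% higher on ginger than on TNBS, and over all named genes 1.5% and 0.817%. Adipoq differed by -0.58 and Lpl by -0.47 on the log2 scale, short of 2-fold, and Plin1 by 0.01. Among the genes other than Fabp4 the median was -0.85, against 0.02 over all measured genes.

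Zingerone with TNBS showed smaller differences from TNBS alone for most of these genes. Cfd was 2.35-fold lower and Fabp4 2.31-fold lower on zingerone, while Cidec (-0.42), Lep (-0.41), Adipoq (-0.24), Lpl (-0.06) and Plin1 (0.11) differed by less than 2-fold on the log2 scale. So 2 of the 7 members were 2-fold lower on zingerone and none was higher. Of the measured genes 2.96% were lower and 4.57% higher on zingerone (1.79% and 2.78% of all named genes). The median of the 6 genes other than Fabp4 was -0.32, against -0.02 over all measured genes.

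**Figure D3:**
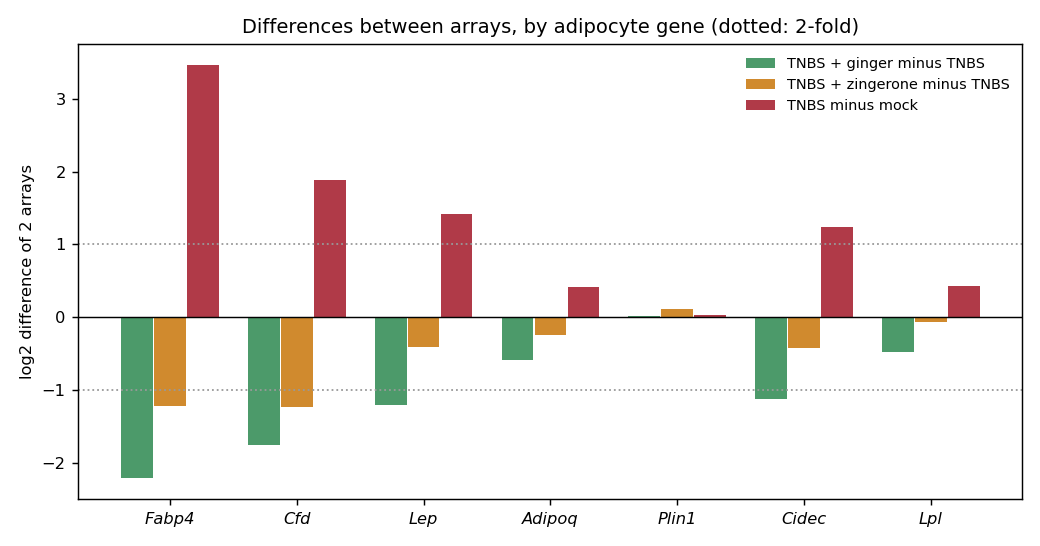
Log2 difference of 2 arrays for each of the 7 adipocyte genes, for TNBS with ginger minus TNBS, TNBS with zingerone minus TNBS, and TNBS minus mock, with dotted lines at 2-fold. Fabp4 and Cfd pass 2-fold in all 3 comparisons, Lep and Cidec in the ginger and mock comparisons, and Adipoq, Plin1 and Lpl in none.

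Against mock, what remained on the treated arrays differed between the genes. Fabp4 was 2.40-fold higher on ginger than on mock and 4.77-fold higher on zingerone than on mock. By that difference it ranked 107th from the top among measured genes on ginger and 28th on zingerone. Cfd (1.10-fold), Cidec (1.10-fold) and Lep (1.16-fold) were near their mock values on ginger. On zingerone Lep was 2.02-fold higher than on mock, Cidec 1.78-fold and Cfd 1.57-fold. So 1 of 7 genes was 2-fold higher on ginger than on mock, where 1.62% of measured and 0.992% of all named genes were. On zingerone 2 of 7 were, against 1.53% of measured and 0.944% of all named genes. That count depended on the processing: it was 1 with a floor at the 25th percentile, where Lep was at 0.81 (log2), 1 with a filter at the 75th percentile, which removed Lep, and 3 after background subtraction, where Cidec passed too. None was lower on either array, against 1.08% of measured and 0.655% of all named genes on ginger, and 1.05% and 0.643% on zingerone.

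All 7 genes read lower on the ginger array than on the zingerone array. The ratio was 1.99-fold lower for Fabp4, 1.74-fold for Lep, 1.62-fold for Cidec, 1.43-fold for Cfd, 1.34-fold for Lpl, 1.27-fold for Adipoq and 1.07-fold for Plin1. None reached 2-fold, while 0.358% of measured genes were higher and 0.746% lower on ginger (0.216% and 0.451% of all named genes). After background subtraction 2 of the 7 passed, Fabp4 narrowly and Lep at 3.36-fold lower with its ginger reading at the floor. Of all measured genes 45.6% read higher on zingerone than on ginger, and of the 511 genes at least 2-fold higher on TNBS than on mock 29.2% did. The full order TNBS, zingerone, ginger, mock from high to low held for 4 of the 7 genes and for 6.61% of measured genes. With 1 array each, a lower reading on ginger cannot be told apart from a difference between the 2 pieces of tissue.

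Genes that work with the 7 members differed in direction. Each list count of TNBS against mock below stands beside 5.08% of measured genes higher and 4.52% lower. A count of none or of a single gene in a short list therefore says little about the list. Cebpb, a transcription factor early in fat cell formation that inflammation also induces, read 4546.5 on ginger, 3868 on zingerone, 19442 on TNBS and 984.2 on mock. That was 19.8-fold higher on TNBS than on mock, and the only one of 9 measured adipocyte transcription factors at 2-fold. Pparg, the central regulator of fat cells and also a gene of colon epithelium, was 1.25-fold lower on TNBS (379 on TNBS, 474.6 on mock). Cebpa averaged 1.48-fold higher over 2 probes, which differed (1.02 and 0.11 on the log2 scale), and Ebf2 was 1.42-fold lower. The list's median was 0.12, TNBS minus mock on the log2 scale.

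Among 12 measured genes of the lipid droplet and lipolysis, 2 were higher on TNBS than on mock and none lower, with a median of 0.29. G0s2, which encodes an inhibitor of the fat lipase ATGL, read 744.5 on ginger, 936.8 on zingerone, 1834 on TNBS and 293 on mock, 6.26-fold higher on TNBS than on mock. Plin3, a droplet coat gene of many cell types, was 2.11-fold higher, and Plin4 (1.61-fold), Lipe (1.33-fold), Plin2 (1.24-fold) and Cideb (1.80-fold lower) were short of 2-fold. Pnpla2, the gene of ATGL, was 1.38-fold lower. In this list 10 of 12 genes read higher on zingerone than on ginger, as did 45.6% of all measured genes.

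Fatty acid uptake and triglyceride synthesis had 2 of 11 measured genes higher and 2 lower on TNBS than on mock (median 0.37). Dgat2, the last enzyme of triglyceride synthesis, was 3.49-fold higher and the fatty acid transporter Cd36 2.48-fold higher. Agpat2 was 2.35-fold lower (202.5 on TNBS, 476.2 on mock). Pck1, the enzyme of glyceroneogenesis and gluconeogenesis and the other lower gene, was named after its values were seen (-1.20 on the log2 scale). Slc2a4, the insulin-responsive glucose transporter, was 1.08-fold lower. Of 10 lipogenesis enzymes, none was higher and 1 was lower, Scd2 at 2.15-fold, with a median of -0.63. Acaca (1.94-fold lower), Fasn (1.69-fold lower), Me1 (1.87-fold higher) and Scd1 (1.44-fold higher) stayed short of 2-fold.

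Further secreted proteins were mixed. Of 7 measured, 3 were higher and 1 lower on TNBS than on mock (median -0.42). Apln, which encodes apelin, was 4.34-fold higher and Cxcl14 2.47-fold higher, where the 2 Cxcl14 probes gave 2.24 and 0.37 on the log2 scale. Angptl4, an inhibitor of lipoprotein lipase, averaged 2.03-fold higher over 3 probes that disagreed, with 1 at 2566 on TNBS and 375 on mock and the others at 0 and 0.30 on the log2 scale. Itih5 averaged 2.12-fold lower, with its probes at -1.71 and -0.45 on the log2 scale. Of 10 other measured adipocyte-enriched genes 1 was higher and 2 lower (median -0.09). Medag, a gene that promotes fat cell formation, read 371.2 on ginger, 471.5 on zingerone, 1053 on TNBS and 8597 on mock, 8.16-fold lower on TNBS than on mock. Cavin1, a caveolar coat gene, was 2.56-fold lower through 1 of its 2 probes (2722 on TNBS, 19330 on mock), while the other differed by 0.12 on the log2 scale. The caveolin gene Cav2 was 2.37-fold higher. Ucp1, the marker of brown fat, read 187.5 on ginger, 163.8 on zingerone, 173 on TNBS and 176 on mock and was not measured.

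Of 5 measured receptor genes, of fat hormones or of insulin, none reached 2-fold between TNBS and mock. That says little beside the 5.08% of measured genes that were higher and 4.52% lower. The median of the 5 receptor genes was 0.44 on the log2 scale. The leptin receptor Lepr was 1.20-fold lower, the adiponectin receptors Adipor1 and Adipor2 were 1.39-fold and 1.36-fold higher, Cap1, reported as a resistin receptor in human cells, was 1.65-fold higher and the insulin receptor Insr 1.48-fold lower. Among 10 measured partners of lipoprotein lipase, 2 were higher, Angptl4 and Apoc1 (2.51-fold), with a median of 0.03. Gpihbp1, which anchors the lipase to capillaries, averaged 357.7 on TNBS and 357.9 on mock, and the maturation factor Sel1l was 1.65-fold higher.

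None of the relatives of Fabp4 reached its 11.0-fold ratio. Of 7 measured fatty acid binding protein genes, Fabp7 was 2.07-fold higher on TNBS than on mock and Fabp2, the intestinal form, 4.48-fold lower (median -0.21). Fabp1, of liver and intestine, was 1.16-fold lower and the ileal Fabp6 1.64-fold lower. Fabp5, the closest relative in fat cells and macrophages, read 150.2 on ginger, 173.9 on zingerone, 188.0 on TNBS and 149.4 on mock and was not measured. In place of Retn, its relatives could be read: Retnlg, made in neutrophils and counted among their markers, was 18.6-fold higher on TNBS than on mock, Retnla, made by macrophages and fat, 5.90-fold higher, and Retnlb, made by goblet cells, 2.87-fold lower. Of 9 measured complement genes 1 was higher, C3 at 2.99-fold (median -0.04). Cfb, the substrate of adipsin, was 1.43-fold lower and C1qc 1.82-fold lower.

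Some markers of other cell types were also higher on the TNBS array. Of 10 measured monocyte and macrophage markers 3 were higher on TNBS than on mock: Cd14 at 21.2-fold, Fcgr3 at 6.88-fold and Cd68 at 2.28-fold. The summed intensity of the 15 markers with a probe was 9201 on ginger, 8858 on zingerone, 35990 on TNBS and 5566 on mock, and Cd14 alone made up 28071 of the TNBS sum. The macrophage-defining genes Adgre1 (1.30-fold lower) and Csf1r (1.38-fold higher) stayed short of 2-fold. The brighter Csf1r probe was at 0.83 on the log2 scale and the dim one at 0.09. Of 13 measured endothelial markers 4 were higher, led by Lyve1 (2.79-fold), Eng (2.16-fold) and Egfl7 (2.09-fold), and Pecam1 (1.49-fold) and Cdh5 (1.59-fold) were not. The Eng probes differed, at 1.61 and 0.61 on the log2 scale. On ginger 2 macrophage markers and 1 endothelial marker were 2-fold lower than on TNBS, and on zingerone 2 and 0. Of measured genes 2.48% were lower on ginger and 2.96% on zingerone, so counts this small say little. The summed endothelial intensity over 17 genes was 8427 on ginger, 8357 on zingerone, 10452 on TNBS and 8224 on mock. The part of either cell type in the Fabp4 readings was not tested.

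All 10 measured neutrophil markers were at least 2-fold higher on TNBS than on mock (median 4.49), led by Lcn2 (109-fold), S100a9 (57.0-fold) and S100a8 (34.9-fold). Of the 13 with a probe, 8 lay under the named-probe median on mock and 3 on TNBS. Some of the 10 thus counted as measured only through arrays where they were high, so the count is partly set by that filter. The 13 markers with a probe summed to 107197 on ginger, 85742 on zingerone, 190401 on TNBS and 6818 on mock. Against TNBS, 2.48% of measured genes were 2-fold lower on ginger and 2.96% on zingerone. Of the 10 neutrophil markers 7 were lower on ginger and 7 on zingerone. The TNBS array is shared with the comparison to mock, so this overlap is no independent result. Of these 10, 2 read higher on zingerone than on ginger, as did 3 of 10 macrophage, 6 of 13 endothelial and 8 of 13 epithelial markers. So did 8 of 11 markers of fat stroma and fibroblasts and 8 of 10 lipogenesis enzymes. Such an order was therefore not particular to the adipocyte genes. Of all measured genes 45.6% read higher on zingerone than on ginger, and counts near that share say little about a list. Among fat-related lists, 3 of 9 adipocyte transcription factors were higher on zingerone, as were 3 of 11 genes of fatty acid uptake and triglyceride synthesis. Of lipoprotein lipase partners 3 of 10 were, of further secreted proteins 4 of 7 and of other adipocyte-enriched genes 6 of 10. None of 6 measured mesothelial markers reached 2-fold (Msln 1.99-fold higher, Wt1 1.87-fold higher, Krt19 1.45-fold lower), and of 5 exocrine pancreas markers 1 was lower, Cela1 at 2.48-fold, with Cela2a and Cel 1.32-fold and 1.31-fold lower. None of 11 measured markers of fat stroma and fibroblasts reached 2-fold as an average of probes (median 0.21). Pdgfra was 1.96-fold and Pi16 1.88-fold higher, and Dpp4 1.76-fold lower. The brighter Col3a1 probe alone passed 2-fold, at 1.10 on the log2 scale, and the dim one was at 0.19. Beside 5.08% of measured genes higher and 4.52% lower on TNBS than on mock, these mesothelial, pancreas and stroma counts say little. Of 10 smooth muscle markers Smtn was 3.95-fold lower (median -0.48), with Des 1.71-fold higher and Myh11 1.64-fold lower. Of 13 epithelial markers 4 were lower, led by Car4 (8.04-fold), Guca2a (7.45-fold) and Slc26a3 (5.69-fold), and 1 was higher (median -0.64). The brightest Muc2 probe was at -1.49 on the log2 scale, and it was averaged with dimmer ones from -0.35 to 0.44. The part of the tissue layers in the adipocyte readings was not tested.

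**Figure D4:**
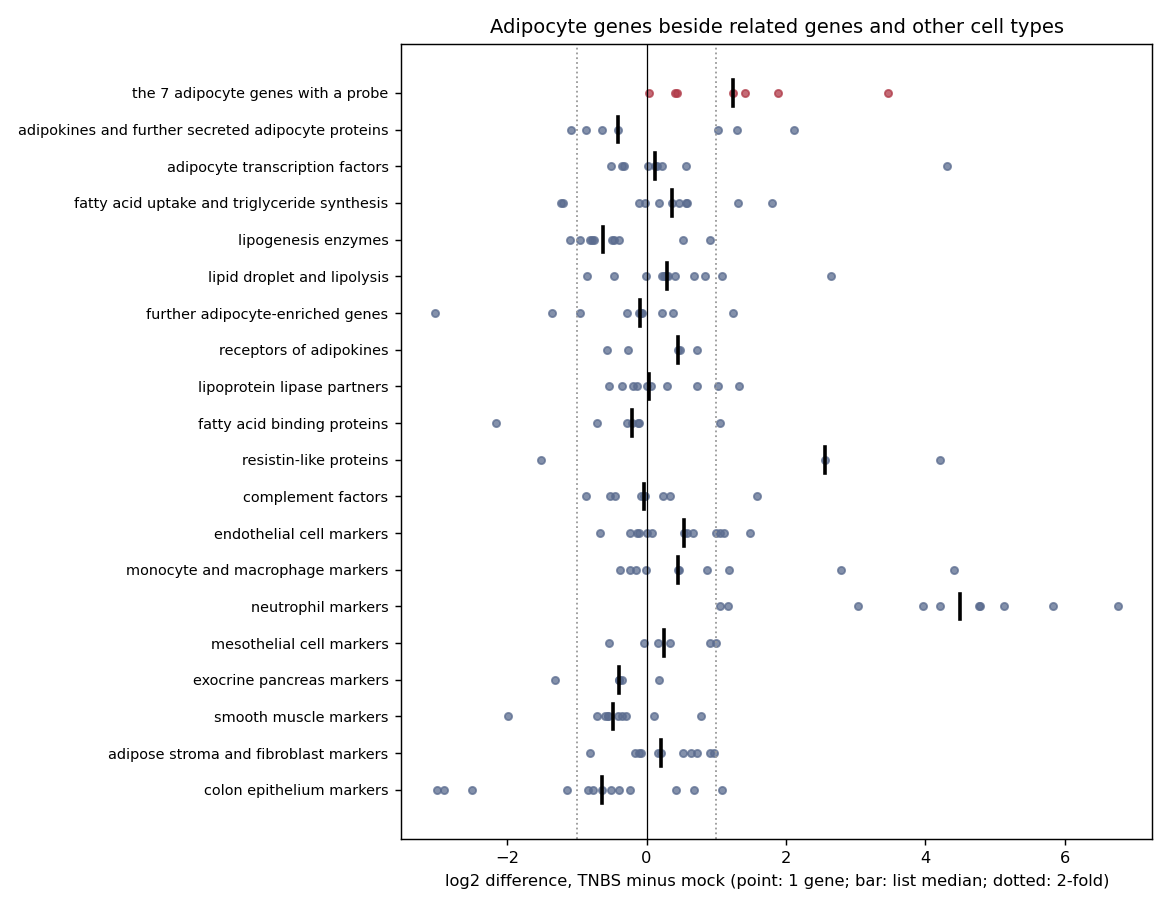
Log2 difference, TNBS minus mock, of the 7 adipocyte genes with a probe (red) and of the measured genes of each related list or cell type (blue), 1 point per gene, with a bar at each list's median and dotted lines at 2-fold. Fabp4 stands at 3.46 and Plin1 at 0.03, and the lists of lipogenesis enzymes and epithelial markers have medians of -0.63 and -0.64. The 10 measured neutrophil markers lie above 1, some of them measured only through arrays where they were high.

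The genes whose profile over the 4 arrays was most like that of Fabp4 were ranked by the largest gap between profiles, after each gene's mean log2 value was removed. Out of 9847 genes, the 5 nearest were Lrg1 (0.39), Esr2 (0.46), G0s2 (0.49), Ccl3 (0.52) and Iqcf3 (0.55), gaps on the log2 scale. Lrg1, a secreted glycoprotein gene of the acute phase response, read 3278 on ginger, 4594 on zingerone, 8896 on TNBS and 1180.5 on mock. Among the other adipocyte genes the nearest to Fabp4 was Cfd, in place 175 with a gap of 1.08, since its difference between TNBS and mock was smaller. Nearest to Cfd were Samsn1 (0.16), Ankrd22 (0.16), Ifi204 (0.17), Cxcl13 (0.18) and Lmcd1 (0.21), and Lep stood in place 119 and Cidec in place 183. Each profile rests on 4 arrays, and many genes have a like order over 4 values.

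**Figure D5:**
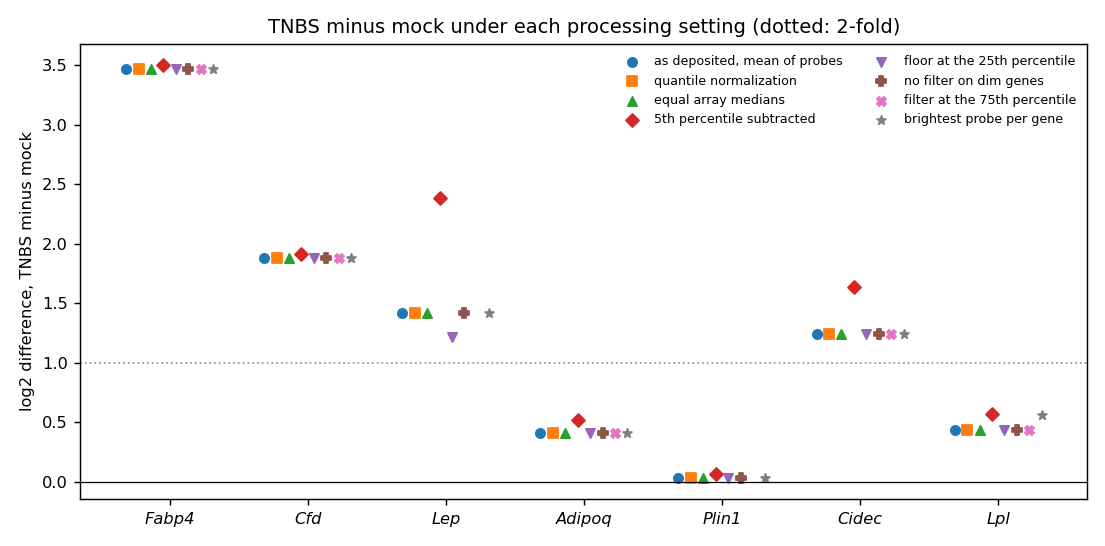
Log2 difference, TNBS minus mock, of the 7 adipocyte genes under the processing as reported and 7 alternative settings, with a dotted line at 2-fold. Fabp4, Cfd, Lep and Cidec lie above the line in every setting in which they are shown (Lep and Plin1 do not pass the filter at the 75th percentile), and Lep moves most, to 2.38 after background subtraction.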

How the data were processed

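Arrays were hybridised with Cy3-labelled target made from 5 µg of colon RNA, per the labels' protocols. What the authors deposited is a linear intensity for each probe on each of the 4 arrays. Of the tools, limma appears in the submitters' processing notes, without a version or a step. How background was treated and how arrays were scaled is not given in the sources used here. Once sorted, the 4 columns are within 1.84% of one another, so they share 1 distribution, and the lowest value is 74.2, so folds of dim probes are understated if background was left in.

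Of 29922 probes, 21020 had 1 gene symbol, none had several and 8902 had none. By RefSeq gene names and synonyms (GRCm38.p6), 17558 symbols were current, 3410 were updated and 52 kept. Values were log2-transformed without a pseudocount, and the probes of 1 gene were averaged, with Python 3.11.15, numpy 2.4.6 and pandas 2.3.3. The steps were tested on simulated data. No test was run across groups. The adipocyte genes, the 19 further lists and the settings were chosen with earlier results of these data known. Of each list the 3 measured genes with the largest difference between TNBS and mock were named, with some named whatever their values, and the 5 genes nearest in profile to Fabp4 and to Cfd. Rows naming no gene entered no gene count.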

Additional observations from a re-analysis of the deposited data

How the results depend on the processing

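Alternatives were quantile normalization, equal array medians, background subtraction (the 5th percentile of an array, with results below 50 set to 50), a floor at the 25th percentile, all named genes without a filter, a stricter filter (75th percentile), and the brightest probe per gene. No value of a member at least 2-fold apart changed sign under any of them. Background subtraction gave 855 genes higher and 841 lower on TNBS than on mock, in place of 511 and 455. There, 2 members were 2-fold lower on ginger than on zingerone, Fabp4 narrowly and Lep by -1.75 (log2), in place of none. Lep was then at 2.38 (log2, TNBS minus mock), with its ginger and mock values at the floor of 50, and Cidec passed 2-fold between zingerone and mock (1.14). The number of members 2-fold higher on zingerone than on mock was 1 in place of 2 with the floor, where Lep was at 0.81, and 1 with the filter at the 75th percentile, which removed Lep. After background subtraction, genes 2-fold higher and lower numbered 326 and 416 on ginger against TNBS, 963 and 534 on zingerone against TNBS, 296 and 280 on ginger against mock, 379 and 195 on zingerone against mock, and 63 and 314 on ginger against zingerone. The main counts were 136 and 249, 460 and 298, 163 and 109, 154 and 106, and 36 and 75. No paired analysis was possible because each group has 1 array. Leaving out an array would leave its group empty. Signal over background limits Lep and Plin1 most.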
